A study of Homo sapiens with 6 samples.

Results

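U17 is represented by 2 of the 142 rows of the small RNA table, SNORA73A (ENSG00000274266) and SNORA73B (ENSG00000200087), which were taken because their gene names start with SNORA73. The table comes from a comparison of nascent small RNA 3′ ends in HEK 293T-REx TOE1-degron cells, a human embryonic kidney line in which the 3′ exonuclease TOE1 carries a degron. The 3 libraries labelled TOE1+ hold TOE1, and the 3 libraries labelled TOE1- come from cells that lost it after 8 hours in 600 µM indole-3-acetic acid, the auxin that triggers the degron. All cells were given 0.2 mM ethynyl uridine for 8 hours to mark new RNA, and RNA of 100 to 500 nt was sequenced from its 3′ end. The adaptor ligated to that end was AG10 in all libraries except TOE1-depleted replicates 2 and 3, which had AG11, so adaptor and depletion are partly confounded. The labels do not say whether the line is 1 clone or whether replicates were separate cultures, so the p-values cover spread between libraries that may be technical. Only small RNAs are listed, so neither the loss of TOE1 nor the kidney origin was checked here.

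U17, also called E1, belongs to the H/ACA class of small nucleolar RNAs, which fold into a pair of hairpins joined by a hinge and end a fixed distance after an ACA box. Most H/ACA RNAs guide dyskerin to uridines that become pseudouridine. U17, like its yeast counterpart snR30, is instead needed for early cleavages of the precursor of ribosomal RNA that lead to 18S rRNA, and it pairs with 18S sequence through conserved motifs named m1 and m2. Human H/ACA RNAs are mostly cut from introns, and their 3′ ends are known to receive short A tails that exonucleases remove again.

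The U17 RNAs are shown because the results turn on how alike they are and on the bases at their ends. Capitals mark, in order, the m1 motif, the m2 motif and the ACA box, and the RNA is written with T from GENCODE 44.
SNORA73A: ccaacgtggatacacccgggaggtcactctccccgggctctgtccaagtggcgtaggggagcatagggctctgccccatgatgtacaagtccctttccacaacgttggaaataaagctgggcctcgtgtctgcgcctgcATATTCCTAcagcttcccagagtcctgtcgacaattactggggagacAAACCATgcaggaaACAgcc
SNORA73B: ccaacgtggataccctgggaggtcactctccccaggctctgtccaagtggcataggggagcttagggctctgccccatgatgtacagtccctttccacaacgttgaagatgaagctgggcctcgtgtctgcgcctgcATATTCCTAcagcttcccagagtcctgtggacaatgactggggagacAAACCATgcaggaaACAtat
SNORA73A is 206 nt long and SNORA73B 204 nt. Aligned end to end they shared 192 of 206 columns (93.2%), with 12 mismatches and 2 gap columns. Only 5 of the last 50 columns differed, and 3 of these were the bases after the ACA box. A read that stops before those bases therefore has few positions that part the genes, and how the authors placed such reads is not given in the sources used here.

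Both genes lie on the plus strand of chromosome 1 of hg38 in introns of SNHG3, a noncoding host gene at 28505980 to 28510892. SNORA73A occupies chr1:28507366-28507571 in intron 1, 556 nt before exon 2, and a retained-intron transcript of the host, SNHG3-202, covers it. SNORA73B occupies chr1:28508559-28508762 in intron 2, 67 nt before exon 3, and no retained-intron transcript of GENCODE 44 covers it. GENCODE 44 holds 4 further genes named SNORA73, which were not analysed here.

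The annotated ends with the genome that follows are shown because the end positions and tails are counted from them. Each run holds the last 20 bases of the RNA and the next 20 of hg38, with the ACA box in capitals and the annotated end 3 bases after it.
SNORA73A, chr1:28507552-28507591: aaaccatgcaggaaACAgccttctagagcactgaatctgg
SNORA73B, chr1:28508743-28508782: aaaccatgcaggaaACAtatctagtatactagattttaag
The first A of the genome after the annotated end stands at position 5 in SNORA73A and at position 3 in SNORA73B, so an A added directly at either annotated end is not encoded there. The m1 letters ATATTCCTA and the m2 letters AAACCAT, searched on the RNA strand alone, were in both U17 RNAs and in 0 of the 59 other H/ACA rows for which GENCODE 44 gave a sequence. An ACA box 3 nt before the annotated end was found in both U17 RNAs and in 46 of those 59 rows (77.97%).

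U17 was among the most-read H/ACA snoRNAs, and its genes contributed nearly equal numbers of reads. SNORA73B had 508, 405 and 398 reads in TOE1-present replicates 1 to 3 and 826, 524 and 1036 in TOE1-depleted replicates 1 to 3. SNORA73A had 458, 362 and 404 reads in the TOE1-present libraries and 805, 420 and 1037 in the TOE1-depleted ones. By reads in all, SNORA73B (3697) ranked 13th and SNORA73A (3486) 15th of the 142 rows. In mean TMM-normalised CPM (reads scaled to a common library size, with TMM factors set so that most RNAs keep their level) they ranked 2nd and 3rd of 47 H/ACA rows that passed the filter on low counts, and 2nd and 3rd of the 44 with an annotated length when divided by it. Per nucleotide of RNA, mean CPM was 61.9 for SNORA73B and 57.1 for SNORA73A. SNORA7A, the H/ACA snoRNA just above them, stood at 139.6 CPM per nucleotide, and SNORA10, just below, at 47.6. RNA was sequenced from its 3′ end, so a longer RNA need not give more reads, and the division may understate U17. Undivided, mean CPM was 12624 for SNORA73B, 11770 for SNORA73A, 19407 for SNORA7A and 6336 for SNORA10.

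SNORA73A made up 47.4%, 47.2% and 50.4% of U17 reads in the TOE1-present libraries and 49.4%, 44.5% and 50.02% in the TOE1-depleted ones. The 95% Wilson interval of TOE1-depleted replicate 2, the lowest, was 41.4% to 47.7%, below an equal split, and the intervals of the other 5 libraries reached across it. Such intervals cover counting error only. The log2 ratio of SNORA73A to SNORA73B was −0.0965 ± 0.102 with TOE1 and −0.118 ± 0.175 without it (SD, n = 3 each). The ratio does not depend on how libraries are scaled. Its change was −0.0217, with an exact permutation p of 0.8 (2-sided, 20 splits, smallest possible p 0.1). The groups overlapped, and the balance between the U17 genes showed no difference beyond the spread between libraries.

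The first comparison asked whether TOE1 depletion altered the abundance of U17, and the difference was smaller than its error for both genes. SNORA73B stood at 12003, 12618 and 13565 TMM-normalised CPM in the TOE1-present libraries and at 12140, 12672 and 12748 in the TOE1-depleted ones. Every TOE1-depleted value lay inside the TOE1-present range. SNORA73A stood at 10822, 11279 and 13769 CPM with TOE1 and at 11832, 10157 and 12760 without it. Its lowest library was TOE1-depleted replicate 2 and its highest TOE1-present replicate 3, so these groups overlapped too.

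The means of SNORA73B were 12729 ± 787 and 12520.1 ± 331 CPM (SD, n = 3 each), a log2 change of −0.024 ± 0.15 SE with a 95% interval of −0.39 to 0.34 (edgeR's quasi-likelihood test, Benjamini-Hochberg adjusted p = 0.952). For SNORA73A they were 11957 ± 1586 and 11583 ± 1319 CPM, a log2 change of −0.045 ± 0.18 SE with an interval of −0.48 to 0.39 (edgeR adjusted p = 0.952). With the reads of both genes summed the change was −0.032 ± 0.19 SE (edgeR adjusted p = 0.948). Neither gene was called, where 7.92% of the 101 RNAs tested were, and neither had groups apart, where 31.7% of those RNAs did. That background count was 8 RNAs, against 18 with the replicate number as a block and 0 to 2 with any 1 library left out, and U17 was called in none of these fits. Changes inside the interval bounds are not excluded by these libraries.

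**Figure D1:**
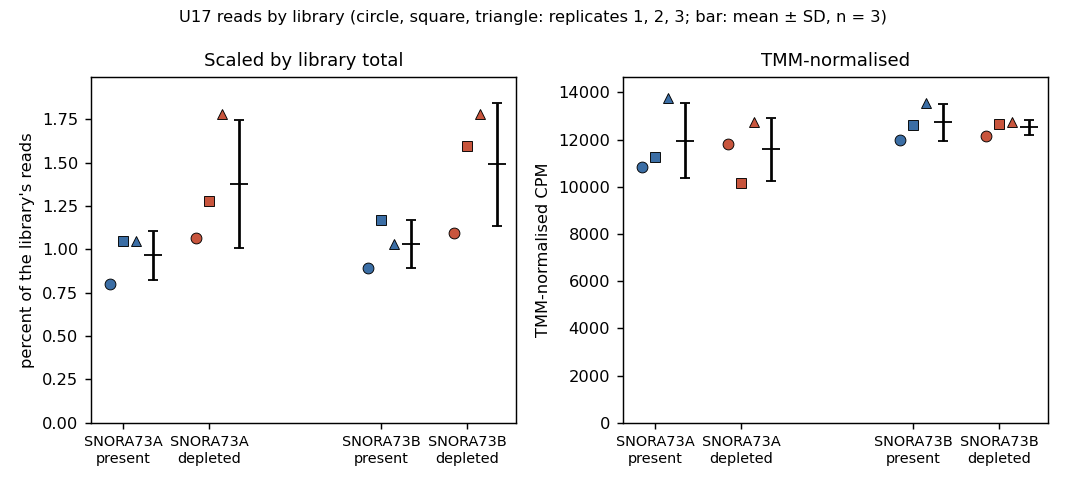
Reads of SNORA73A and SNORA73B in each library, on the left as percent of the library's reads and on the right as TMM-normalised CPM, with circles, squares and triangles for replicates 1, 2 and 3, blue for TOE1-present, red for TOE1-depleted, and the mean ± SD (n = 3) in black. On the right the groups overlap for both genes, while on the left the 3 TOE1-depleted values of SNORA73A, 1.07% to 1.78%, lie above its TOE1-present values, 0.802% to 1.05%.

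The direction of the U17 difference turned with the scaling of libraries. As a plain share of library reads, SNORA73A took 0.802%, 1.05% and 1.05% with TOE1 and 1.07%, 1.28% and 1.78% without it, and SNORA73B took 0.890%, 1.17% and 1.03% with TOE1 and 1.10%, 1.60% and 1.78% without it. The groups of SNORA73A did not overlap on this scale, as was the case for 45.5% of RNAs tested. Scaled by library totals, the log2 changes were 0.51 ± 0.39 SE for SNORA73A and 0.53 ± 0.40 SE for SNORA73B (edgeR adjusted p of 0.331 and 0.316). The same scaling moved the median of all tested RNAs from 0.08 to 0.63, and the U17 values lay below that median under both scalings. RN7SL1, the signal recognition particle RNA with the most reads of any row, enters the totals. It took 21.3% to 29.2% of the reads of TOE1-present libraries and 13.7% to 19.2% of TOE1-depleted ones. Its part in the changes scaled by library totals was not tested. Another fit set the TMM factors without the 7SL, 7SK, RMRP and U2 rows. That fit gave −0.13 ± 0.16 SE for SNORA73A and −0.11 ± 0.13 SE for SNORA73B (edgeR adjusted p of 0.746 and 0.740). A further scaling set the TMM factors on the H/ACA rows alone, U17 among them. The changes were then −0.19 ± 0.16 SE for SNORA73A and −0.17 ± 0.12 SE for SNORA73B (edgeR adjusted p of 0.577 and 0.453).

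Among the 45 other H/ACA rows tested, 32 had log2 changes above 0 and 13 below, with a median of 0.13, beside 0.08 over all RNAs tested. Of these 45, 3 passed the adjusted threshold upward, where 4.95% of all RNAs tested did, and 0 downward (edgeR). At an unadjusted p under 0.05 there were 9 upward, where 15.8% of all RNAs were, and 0 downward, where 11.9% were. The RNAs whose centred log2 CPM followed SNORA73B most closely over the 6 libraries were SNORA71D, SNORA10 and SNORA7A, with root mean square differences of 0.086, 0.087 and 0.091 on the log2 scale. For SNORA73A they were SNORA77B, SNORA71A and SNORA71D, at 0.067, 0.085 and 0.092. All are H/ACA snoRNAs, and SNORA73B was 4th closest to SNORA73A, at 0.12.

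The second comparison asked about untemplated tails, the bases at the 3′ end that the genome does not encode. Both U17 RNAs had smaller A-tailed shares (the class headed A1+) without TOE1, by similar amounts, and neither difference passed the threshold. The A1+ share went from 20.2% to 6.69% in SNORA73B and from 23.4% to 8.68% in SNORA73A in the authors' deposited table. That source gives 1 value per condition and no library values. The class does not hold all untemplated A. All A bases per read went from 0.413 to 0.271 in SNORA73B and from 0.331 to 0.276 in SNORA73A, more than the tails of this class carry. Intervals recovered from the deposited difference and p were −27.3 to 0.170 percentage points for SNORA73B and −35.2 to 5.68 for SNORA73A, with adjusted p of 0.214 and 0.294. Both intervals reach 0, and the one of SNORA73B does so narrowly. No RNA of the table was called for this share (0.0% of 128), while 18.8% had a lower share at an unadjusted p under 0.05; the U17 rows, with unadjusted p of 0.0518 and 0.116 in the authors' deposited table, were not among them.

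Most H/ACA snoRNAs had a smaller share too. Among the 39 other H/ACA snoRNAs with at least 100 reads the share was lower without TOE1 in 37 and higher in 2 in the authors' deposited table, with medians of 20.9% and 9.51%. The differences of U17, −13.5 percentage points for SNORA73B and −14.8 for SNORA73A in the authors' deposited table, stood beside a median of −10.2 for those RNAs. From the highest (most positive) they ranked 29th and 33rd of 41. Since 2 of the 3 TOE1-depleted libraries, and no others, carried AG11, adaptor and depletion cannot be told apart for any tail measure.

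**Figure D2:**
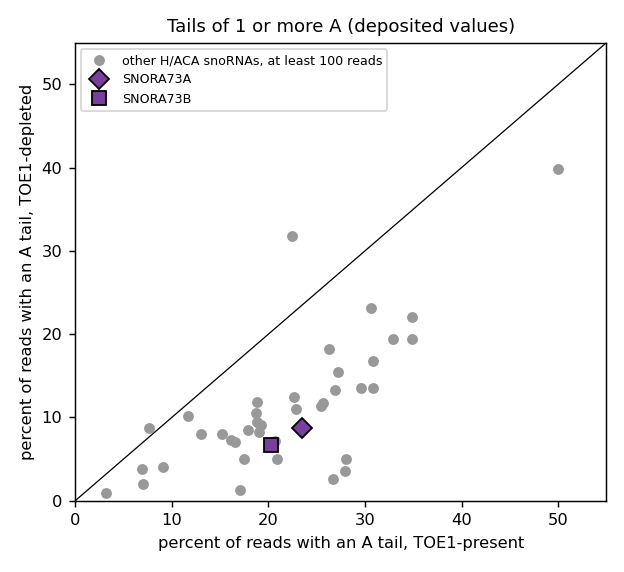
Percent of reads in the A1+ tail class, which does not hold all untemplated A, in TOE1-present cells (horizontal) and TOE1-depleted cells (vertical). Each point is an H/ACA snoRNA of at least 100 reads, with U17 in purple and the line of equal values. SNORA73A (diamond, 23.4% and 8.68%) and SNORA73B (square, 20.2% and 6.69%) lie below the line, as do 37 of the 39 others.

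Within the A1+ class the tails of U17 were almost all 1 base long, and untemplated A outside this class is not covered by these lengths. In TOE1-present cells tails of exactly 1 A made up 99.7% of the A-tailed share in SNORA73B and 99.6% in SNORA73A, computed from the authors' deposited table. Tails of 2 or more A were on 0.0656% of SNORA73B and 0.0921% of SNORA73A reads with TOE1, while in TOE1-depleted cells the authors' deposited table gives 0.258% and 0.162%. For scale, 1 read in a single TOE1-present library, averaged over the 3, would give 0.0656% to 0.0838% for SNORA73B and 0.0728% to 0.0921% for SNORA73A, so these TOE1-present shares are at the level of 1 read. Over 41 H/ACA snoRNAs with at least 100 reads the share of A tails that were 1 base long had a median of 87.3% and ran from 9.43% to complete, and it was above 95% in 14. SNORA7A, nearest above U17 in level, had 47.9%, with 18.2% of its reads carrying 2 or more A with TOE1 in the authors' deposited table. The change in tails of 2 or more A had adjusted p of 0.5995 for SNORA73B and 0.762 for SNORA73A, where 1.08% of 93 RNAs were called.

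The other tail bases differed in sign between the U17 RNAs. SNORA73A went from 0.0431 to 0.125 U per read, from 0.0884 to 0.152 G and from 0.0592 to 0.0819 C in the authors' deposited table. SNORA73B went from 0.110 to 0.0905 U, from 0.2199 to 0.189 G and from 0.111 to 0.0998 C in the authors' deposited table. With TOE1 the SNORA73B reads carried more of each of these bases, and without it the U value was higher for SNORA73A. For SNORA73A the recovered 95% intervals were 0.00664 to 0.156 nt for U and 0.0119 to 0.115 nt for G, with unadjusted p of 0.0391 and 0.0269 in the authors' deposited table and adjusted p of 0.503 and 0.597; 0.787% of RNAs were called for U and 0.0% for G. Unadjusted p under 0.05 in the upward direction was found for 6.3% of RNAs for U and 4.51% for G. A bases went from 0.413 to 0.271 nt per read in SNORA73B and from 0.331 to 0.276 in SNORA73A in the authors' deposited table. The first had an unadjusted p of 0.0334 (9.49% of RNAs were lower at that level) and an adjusted p of 0.338, the second 0.358 and 0.657, and 0.0% of RNAs were called. The difference between the U17 RNAs in these changes was not tested, because no library values are given.

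**Figure D3:**
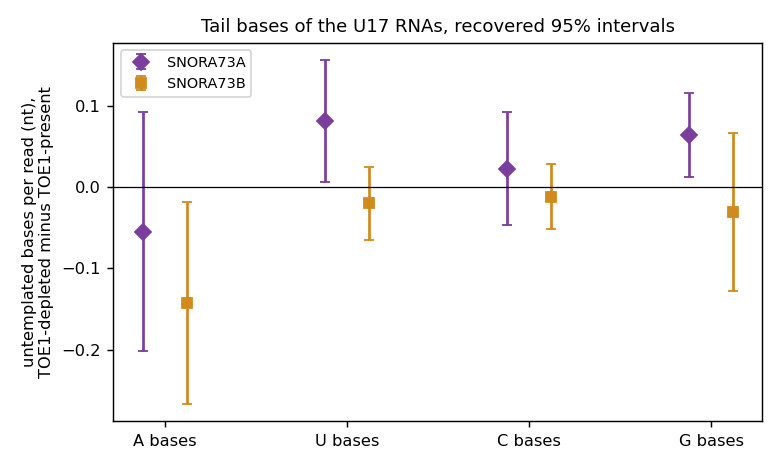
Change in untemplated A, U, C and G bases per read (nt, TOE1-depleted minus TOE1-present) for SNORA73A (purple diamonds) and SNORA73B (orange squares), with 95% intervals recovered from the deposited p. Both A values lie below 0, and the U, C and G values lie above 0 for SNORA73A and below 0 for SNORA73B, where only A of SNORA73B and U and G of SNORA73A have intervals without 0.

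A further tail class is headed AU+, a name that is not spelled out. SNORA73A had a larger share of this class without TOE1, but the difference did not pass the threshold. By the authors' deposited table, SNORA73A carried it on 0.146% of reads with TOE1 and on 4.12% after depletion, and SNORA73B on 0 and 0.105%. The value without TOE1 and the difference of 3.97 percentage points were the highest of the 41 H/ACA snoRNAs with at least 100 reads, whose median was 0. The recovered interval of that difference, −1.45 to 9.40 percentage points, included 0 (unadjusted p of 0.112 in the authors' deposited table, adjusted p = 0.522), and no RNA was called (0.0% of 41). For tails of 1 or more U, SNORA73A went from 0.0921% to 0.624% and SNORA73B from 0.0656% to 0.256% in the authors' deposited table. Adjusted, both had a p of 0.673, and no RNA was called (0.0% of 54). Averaged as above, 1 read in a single TOE1-present library would give 0.0728% to 0.0921% for SNORA73A and 0.0656% to 0.0838% for SNORA73B. The TOE1-present shares of tails of 1 or more U are thus at the level of 1 read. The TOE1-present AU+ share of SNORA73A, 0.146%, is also near this floor. Tails of 3 or more U were listed at 0 for both RNAs in both conditions. The U17 genes differ in their last 3 bases, and how reads that stop before these were placed is not known. The part of read placement in values that differ between the genes, for tails here and above and for ends below, was not tested.

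The third comparison concerned the position of the 3′ end. In TOE1-present cells the end of both U17 RNAs had a median of 0, the annotated end, with means of 0.402 nt for SNORA73A and 0.524 nt for SNORA73B in the authors' deposited table; its header does not say whether the tail is counted there. Without TOE1 the ends of both lay slightly upstream, toward the ACA box, by less than 1 nt, and neither passed the adjusted threshold. The genome-templated end, counted without the tail, differed by −0.322 nt in SNORA73A (95% interval −0.536 to −0.108 nt) and by −0.119 nt in SNORA73B (−0.401 to 0.163 nt) in the authors' deposited table. Their adjusted p were 0.254 and 0.703. SNORA73A had an unadjusted p of 0.0139 in the authors' deposited table, as 7.19% of 139 RNAs had one under 0.05 in this direction. Both recovered intervals exclude a downstream move of 1 nt, provided that the test assumed for them is the one used.

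The total end, with its tail, differed by −0.209 nt in SNORA73A (−0.516 to 0.0978 nt) and by −0.324 nt in SNORA73B (−0.661 to 0.0132 nt) in the authors' deposited table. Both had an adjusted p of 0.557. In SNORA73A the templated end differed by more than the total end, and the tail U, G and C bases were higher, whereas in SNORA73B the A bases contributed −0.142 nt of the −0.324 nt in the authors' deposited table. The authors also give a Kolmogorov-Smirnov p, headed as a median, without saying how reads and libraries entered it. It may count reads as replicates. For the total end it gave adjusted p of 2.84e-09 for SNORA73B and 3.75e-09 for SNORA73A, where 12.8% of RNAs were called with an upstream mean. For the genome-templated end it gave 1 and 0.177, where 4.96% were called. Among all RNAs 2.16% were called for either end by the p on library means. The other 63 H/ACA rows had a median of −0.212 nt for the genome-templated end, 45 below and 18 above 0, and of −0.335 nt for the total end, 44 below and 19 above, beside −0.106 and −0.163 nt over all 142 rows. At an unadjusted p under 0.05 they held 3 upstream and 1 downstream templated ends in the authors' deposited table, beside 7.19% and 5.76% of all RNAs, and 0 were called.

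**Figure D4:**
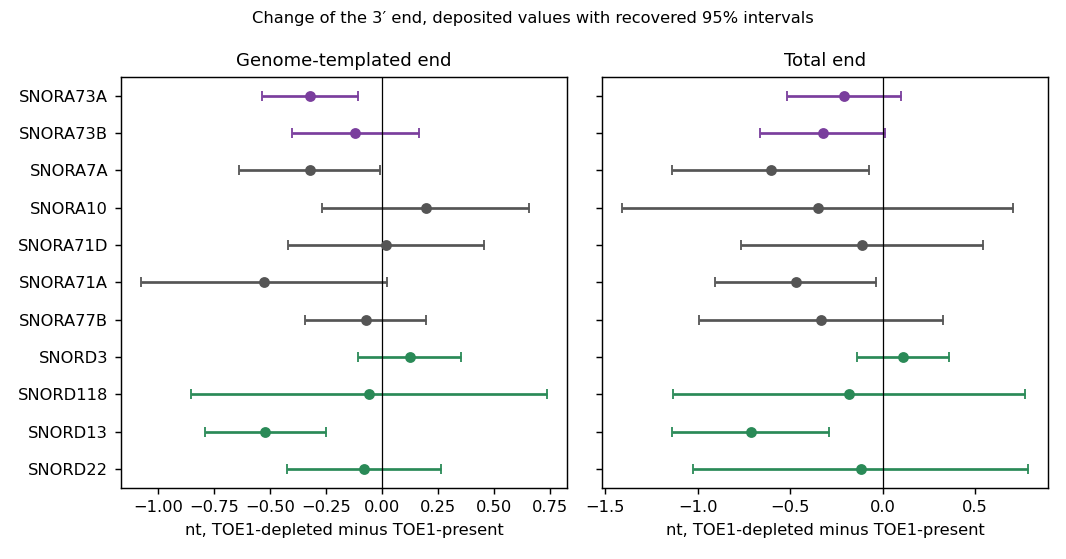
Change of the genome-templated end (left) and of the total end (right) in nt, TOE1-depleted minus TOE1-present, with 95% intervals recovered from the deposited p, for U17 (purple), H/ACA snoRNAs near it in level or pattern (grey) and C/D snoRNAs of ribosomal RNA processing (green). All 4 U17 values lie below 0, and of their 4 intervals only that of the genome-templated end of SNORA73A, −0.536 to −0.108 nt, leaves out 0, as some intervals of the other RNAs do.

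Other small RNAs that act in the processing of ribosomal RNA precursors were represented by 8 rows: U3 (SNORD3), needed for early cleavages around 18S rRNA, U8 (SNORD118), for the large subunit RNAs, U13 (SNORD13), which helps to acetylate 18S rRNA, U22 (SNORD22), E2 (SNORA62), E3 (SNORA63) and the RNA of RNase MRP in 2 gene models. The list had no row for U14. In abundance 6 of the 8 were tested and 0 passed in either direction. At an unadjusted p under 0.05, 2 were lower (U3 and U22) and 1 higher (U13), beside 11.9% and 15.8% of all RNAs tested, with log2 changes of −0.72 ± 0.21, −0.41 ± 0.14 and 0.56 ± 0.17 SE (edgeR adjusted p of 0.0924, 0.116 and 0.0924). Their median log2 change was −0.14.

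U3, which acts in the same early steps as U17, had 55527, 54243 and 48192 TMM-normalised CPM with TOE1 and 29910, 37775 and 28510.1 without it. These groups did not overlap on this scale, as was the case for 31.7% of RNAs. As a share of library reads U3 took 4.12%, 5.03% and 3.67% with TOE1 and 2.701%, 4.76% and 3.98% without it, and there its groups overlapped while those of SNORA73A did not. The difference between U3 and U17 was not tested. For the genome-templated end 7 of the 8 rows lay below 0 and 1, U3 at 0.123 nt, above, with a median of −0.148 nt in the authors' deposited table, and 0 passed. Intervals without 0 were those of U13, at −0.521 nt (−0.791 to −0.251 nt, adjusted p = 0.162), and of E3, at −0.700 nt (−1.17 to −0.228 nt, adjusted p = 0.254), in the authors' deposited table. The A1+ share was lower without TOE1 in 7 of the 8, and 0 passed. It went from 31.3% to 11.3% in U13 and from 4.12% to 3.39% in U3 in the authors' deposited table. The RMRP models, ENSG00000269900 and ENSG00000277027, shared their reads differently in replicate 1 of both groups; with their reads merged the log2 change was −0.18 ± 0.21 SE (edgeR adjusted p = 0.734). E2 and E3 had 41 and 20 reads in all and did not pass the filter on low counts.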

How the data were processed

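Nascent small RNA 3′ ends were measured in 6 libraries. The authors deposited 1 table with raw read counts per RNA and library, without normalization, and with end positions, untemplated bases (nt), fractions of reads by tail class (printed here as percent) and p-values per condition, per the file headers. STAR 2.7.8a and hg38 are named in the submitters' processing notes; no source used here states the annotation, multi-mapping or molecular identifiers. Libraries held 32813 to 75353 reads.

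Rows whose names start with SNORA73 were taken; the members and lists were chosen with earlier results of these data known. Counts were tested over all rows with edgeR 4.0.16 (quasi-likelihood, TMM, filterByExpr, R 4.3.3) and Benjamini-Hochberg adjustment at 0.05, checked on simulated counts; DESeq2 1.42.0 was an alternative. Deposited p-values were adjusted over all rows that had one. TE minus GE equalled the summed tail bases in 142 of 142 rows (within 1e-06 nt), so TE was read as total and GE as genome-templated end; both lie in a window of −10 to 50 nt. The 95% intervals assume a 2-sided pooled-variance test on 3 against 3 libraries with 4 degrees of freedom. Named were U17, the ribosomal RNA processing list, the 3 RNAs nearest each U17 row in centred log2 CPM and its H/ACA neighbours in level. Deviations of same-numbered libraries had correlations of 0.907, 0.258 and 0.807 over 101 rows, which met the rule for pairing, but TOE1-present replicate 3 reached 0.811 with TOE1-depleted replicate 2, and TOE1-present replicate 2 0.275 with TOE1-depleted replicate 3. Without the 7SL, 7SK, RMRP and U2 rows the same-numbered values were 0.0147, −0.0330 and 0.135. Sequences came from GENCODE 44 and hg38; 61 of 65 H/ACA rows matched.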

Additional observations from a re-analysis of the deposited data

How the results depend on the processing

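Neither U17 gene was called in abundance under any of 17 alternatives each, with adjusted p of 0.316 to 0.983 for SNORA73B and 0.331 to 0.996 for SNORA73A. The log2 change turned positive when libraries were scaled by totals, 0.53 for SNORA73B and 0.51 for SNORA73A. Leaving out 1 library gave −0.11 to −0.01 for SNORA73B and −0.16 to 0.04 for SNORA73A, which was 0.037 without TOE1-present replicate 3 and 0.035 without TOE1-depleted replicate 2. With the replicate block the changes were −0.02 and −0.04, and no U17 call changed.

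The log2 ratio of SNORA73A to SNORA73B changed by −0.0815 to 0.0786 with 1 library left out, 0.0373 without TOE1-present replicate 3 and 0.0786 without TOE1-depleted replicate 2, and by 0.0594 in AG10 libraries alone. With the replicate block, added after seeing the data, it changed by −0.0217 (exact sign-flip p = 0.75, where 3 pairs cannot go below 0.25).

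The 8 abundance calls over all RNAs became 23 with library totals, 13 with TMM over H/ACA snoRNAs, 18 with DESeq2, 5 with no filter, 18 with the replicate block, 0 with adaptor as covariate or in AG10 libraries alone, 0 to 2 with 1 library left out, and 13 with split families merged, an alternative added after seeing the data. The cause was not tested.

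By the authors' Kolmogorov-Smirnov p, which may count reads as replicates, the total ends, −0.324 nt for SNORA73B and −0.209 nt for SNORA73A, passed. No other end or tail result crossed the threshold when adjusted over rows with at least 100 reads. Depth limits rare tails: 1 read in 1 TOE1-present library gives a U17 share of 0.0656% to 0.0921%.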
